A study of Homo sapiens with 6 samples.

Results

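Dual-specificity MAPK phosphatases are enzymes that remove the activating phosphates from both the threonine and the tyrosine of mitogen-activated protein kinases (MAPKs), and so switch off ERK, p38 and JNK. Several of them are themselves transcribed in response to the kinases they inactivate, which makes them feedback regulators of the pathway, and they differ in their preferred kinase and in whether they reside in the nucleus or the cytoplasm. The RNA levels of 10 of these genes (DUSP1, DUSP4, DUSP5, DUSP6, DUSP7, DUSP8, DUSP9, DUSP10, DUSP14 and DUSP16), of 16305 genes in all, were examined in Huh7-R cells treated with fostamatinib or with DMSO. Each of the 10 had a value in every sample. The genes were chosen by their symbols as members of the family, with their fold changes in this comparison already known. Their values and calls are therefore given as a description, without a test of the group.

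The Huh7 line comes from a human hepatocellular carcinoma. Huh7-R (Huh7SR in the sample labels) is a pool of its cells that became resistant to the multi-kinase inhibitor sorafenib. The cells of both groups carried this resistance, and sorafenib was withdrawn from the medium before all experiments. Fostamatinib, an inhibitor of spleen tyrosine kinase, was applied at 2 µM for 24 h in 3 samples. Another 3 samples received DMSO, for which the labels give the same dose and time. The authors did not detect the protein of spleen tyrosine kinase in Huh7 cells. At a higher dose and a shorter time, they found less phosphorylation of ERK and JNK, among other proteins. Which kinases the drug acted on in these 6 samples was not tested. The labels state that treatments were applied in triplicate but not whether the samples came from separate cultures, so the errors may cover only technical spread.

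The values are log2 CPM, a log2 read count scaled by the authors for the sequencing depth of each sample. Samples held 13303451 to 15272737 reads on the listed genes. Replicates of a group correlated at 0.988 to 0.989 in log2 CPM across genes, and samples of different groups at 0.970 to 0.972. The hepatocyte markers ALB, APOA1, APOB, TTR, SERPINA1, AFP and HNF4A all had reads in every sample, from means of 21.7 reads for APOA1 to 28004 for AFP with DMSO. All 7 were higher after fostamatinib (adjusted p under 0.05 in limma's linear model), against 23.3% of all genes. Their log2 fold changes ran from 0.21 for APOB to 3.19 for APOA1. Of 8 markers of other cell types, PECAM1, COL1A1 and PDGFRB had 32.0 to 94.7 reads on average with DMSO, and PTPRC, CD3E, CD68, CDH5 and DCN were not analysed here. PECAM1 and PDGFRB rose by 0.51 and 0.95 on the log2 scale (adjusted p = 8.37e-04 and 1.41e-04, limma), and COL1A1 gave 0.18 (adjusted p = 0.298). The part of these shifts in the phosphatase values was not tested. In RNA from whole cultures, fewer cells that express a gene and less RNA per cell cannot be told apart.

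After fostamatinib, the ERK-directed phosphatases split in direction. DUSP4 and DUSP9 rose by 1.95 and 1.50 on the log2 scale, whereas DUSP6, DUSP5 and DUSP7 were lower, with log2 fold changes of -3.20, -1.03 and -0.48. Among the p38/JNK-directed phosphatases only DUSP8 changed by more than 2-fold, with a log2 fold change of -1.06, and DUSP1, which had the most RNA per length of the 10 genes, gave 0.03. The adjusted p-value was under 0.05 for 9 of the 10, against 47.8% of all genes. Of these, 3 were higher, against 23.3% of all genes, and 6 were lower, against 24.5%. In 8 of the 10 genes the fostamatinib samples did not overlap the DMSO samples, against 54.1% of all genes. In limma's test against a change of 2-fold (treat), 3 of the 10 genes passed (DUSP4, DUSP6 and DUSP9), against 1.81% of all genes. Because the genes were chosen with these values known, nothing is read from these counts.

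**Figure D1:**
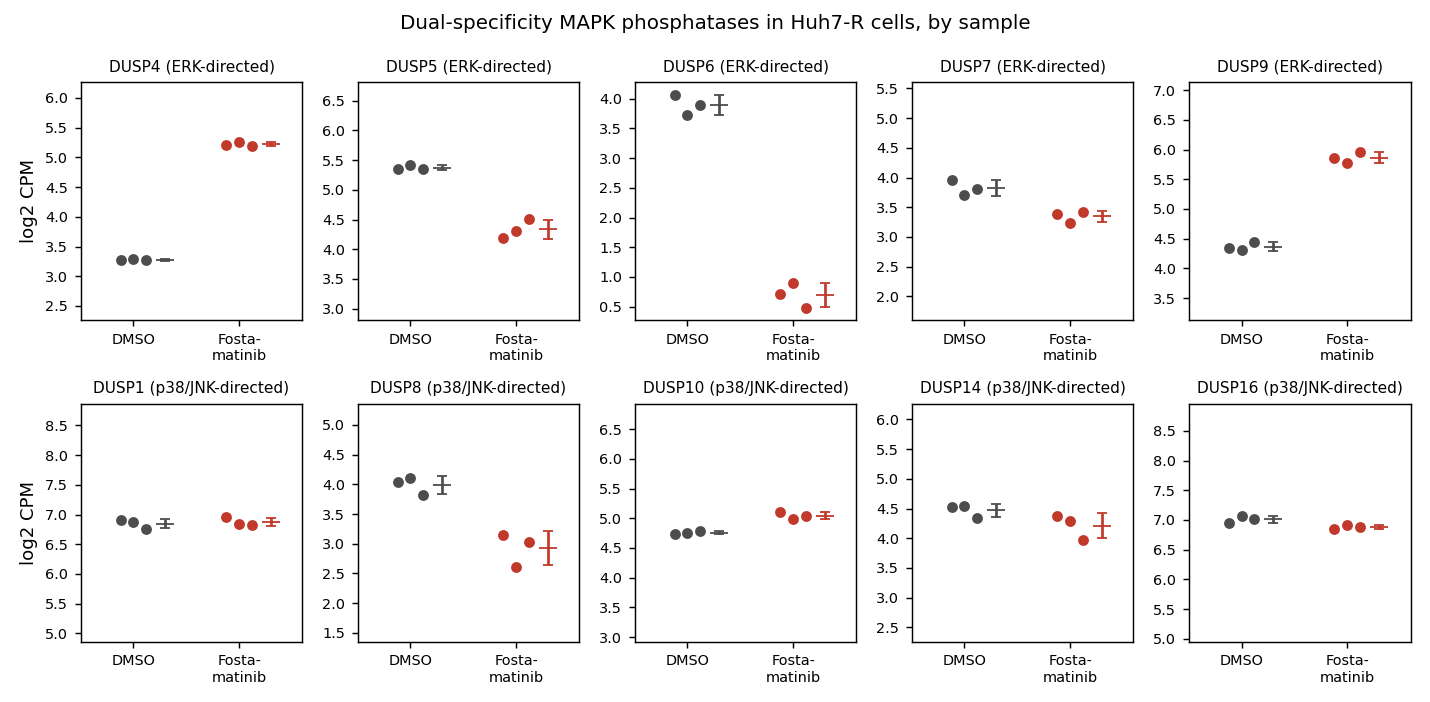
Log2 CPM of the 10 phosphatases in each of the 3 DMSO (grey) and 3 fostamatinib (red) samples, with the group mean and SD beside the points; every vertical axis spans 4 log2 units. DUSP4 and DUSP9 lay higher in all fostamatinib samples, DUSP5, DUSP6, DUSP7 and DUSP8 lower, and the groups overlapped for DUSP1 and DUSP14.

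DUSP6, also called MKP-3, is a cytoplasmic phosphatase specific for ERK and a well-known transcriptional target of the ERK pathway. Its gene is on the - strand of chromosome 12 (GRCh37, as for all gene positions here), from 89741012 to 89746278. Its level was 4.07, 3.73 and 3.89 log2 CPM with DMSO and 0.71, 0.89 and 0.48 after fostamatinib. The groups were far apart, and the fostamatinib level rested on 22, 26 and 18 reads, against 231, 202 and 220 with DMSO. DUSP6 fell from a mean of 3.90 ± 0.170 to 0.70 ± 0.207 log2 CPM (SD, n = 3 per group), a difference of -3.20 with a standard error of 0.16. After fostamatinib 10.9% of the DMSO level remained (95% interval 8.67% to 13.6%). It ranked 14 from the bottom among the 16305 log2 fold changes. Adding 2 instead of 0.5 to the counts gave -3.12. A long non-coding RNA gene on the opposite strand shares 28.6% of the exon bases of DUSP6, and whether the reads were counted by strand is not given in the sources used here.

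DUSP5 and DUSP7 were lower with smaller changes. DUSP5 (chromosome 10, 112257665 to 112271291, + strand) is a nuclear phosphatase that inactivates ERK and anchors it there. It was at 5.34, 5.42 and 5.35 log2 CPM with DMSO and at 4.19, 4.31 and 4.51 after fostamatinib. Every fostamatinib sample was below every DMSO sample. The change was -1.03 on the log2 scale (standard error 0.08), so that 48.8% of the DMSO level remained. The SD of the fostamatinib samples, 0.159, was larger than the 0.0865 that counting error alone gives at this depth. DUSP7 (chromosome 3, 52082935 to 52090587, - strand), a cytoplasmic relative of DUSP6, was at 3.97, 3.70 and 3.81 log2 CPM with DMSO and at 3.38, 3.24 and 3.42 after fostamatinib. These groups were separate as well but closer, and the change was -0.48 on the log2 scale (standard error 0.10).

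DUSP4 and DUSP9 moved the other way. DUSP4, also called MKP-2, is a nuclear phosphatase of ERK that also acts on JNK, and it lies on chromosome 8 from 29190581 to 29208201 on the - strand. Its level was 3.27, 3.28 and 3.27 log2 CPM with DMSO and 5.21, 5.26 and 5.19 after fostamatinib. The replicates lay close together in both groups, with SDs of 0.0087 and 0.0351, below the 0.121 and 0.0637 that counting error gives. DUSP4 rose by 1.95 on the log2 scale (standard error 0.08), or 3.86-fold (95% interval 3.44 to 4.33), and ranked 151 from the top among the 16305 log2 fold changes. In reads it went from 132, 148 and 143 to 510, 546 and 484.

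DUSP9, also called MKP-4, is the third cytoplasmic phosphatase of the DUSP6 type and is known from liver, kidney and placenta. It lies on the X chromosome from 152907946 to 152916781 on the + strand. It was at 4.35, 4.31 and 4.45 log2 CPM with DMSO and at 5.86, 5.78 and 5.95 after fostamatinib. No fostamatinib sample came near the DMSO range. DUSP9 rose by 1.50 on the log2 scale (standard error 0.07), or 2.82-fold (95% interval 2.57 to 3.11), and ranked 319 from the top. Location in the cell did not sort the directions. The nuclear DUSP4 and the cytoplasmic DUSP9 rose, and the nuclear DUSP5 and the cytoplasmic DUSP6 and DUSP7 fell.

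Of the p38/JNK-directed phosphatases, DUSP8 fell. DUSP8 (chromosome 11, 1575281 to 1593501, - strand) inactivates JNK and p38. It was at 4.04, 4.10 and 3.82 log2 CPM with DMSO and at 3.15, 2.60 and 3.03 after fostamatinib. All fostamatinib samples were lower, the second by the most, and 48.1% of the DMSO level remained (95% interval 40.5% to 57.2%). Its log2 fold change was -1.06 (standard error 0.12). In its longest transcript 1.80% of the 50-base windows also occur exactly in transcripts of DUSP8 pseudogenes, so some of its reads may be split or shared. Inexact matches were not counted, so the share of reads concerned is not known. None of the other 9 genes shared an exact 50-base window with another gene.

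DUSP1, also called MKP-1, is a nuclear phosphatase that is induced early by growth factors and stress and prefers p38 and JNK but also acts on ERK. It lies on chromosome 5 from 172195099 to 172198198 on the - strand. It was at 6.90, 6.87 and 6.76 log2 CPM with DMSO and at 6.96, 6.85 and 6.82 after fostamatinib. The groups overlapped. The change was 0.03 on the log2 scale, with a 95% interval from -0.07 to 0.13 and an adjusted p of 0.635 in limma. This interval covers a linear ratio between 0.954 and 1.09.

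The changes of DUSP10, DUSP14 and DUSP16 were small. DUSP10, also called MKP-5 (chromosome 1, 221874766 to 221915431, - strand), inactivates p38 and JNK. It was at 4.73, 4.75 and 4.78 log2 CPM with DMSO and at 5.11, 4.99 and 5.03 after fostamatinib. Its groups did not overlap, and it rose by 0.29 on the log2 scale (standard error 0.07). DUSP16, also called MKP-7 (chromosome 12, 12626216 to 12715797, - strand), acts mainly on JNK. It was at 6.95, 7.06 and 7.01 log2 CPM with DMSO and at 6.84, 6.92 and 6.89 after fostamatinib. The groups lay just apart, with a change of -0.13 on the log2 scale and an adjusted p of 0.0219 in limma. DUSP14 (chromosome 17, 35849997 to 35873603, + strand) is a small member that lacks the kinase-binding domain of the others. It was at 4.52, 4.55 and 4.34 log2 CPM with DMSO and at 4.38, 4.29 and 3.97 after fostamatinib. The groups overlapped, and the change was -0.26 on the log2 scale with an adjusted p of 0.0206 in limma.

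The calls of DUSP14 and DUSP16 depended on single libraries. For DUSP14, the adjusted p was 0.0779 without DMSO replicate 1, 0.0877 without DMSO replicate 2 and 0.253 without fostamatinib replicate 3, where its log2 fold change was -0.14. For DUSP16, it was 0.102 without DMSO replicate 2, 0.104 without fostamatinib replicate 1 and 0.0519 without fostamatinib replicate 3. The calls of the other 7 called genes did not change when any 1 library was left out.

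**Figure D2:**
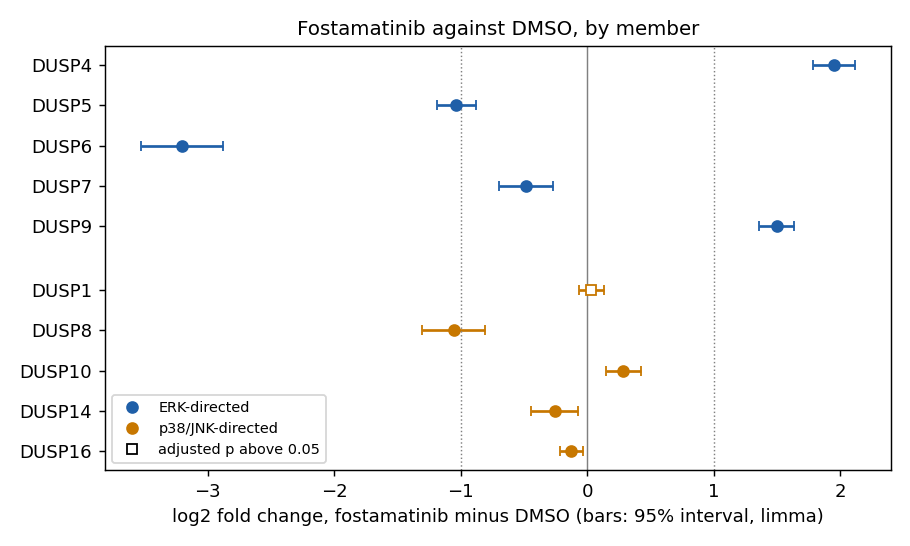
Log2 fold change of each phosphatase, fostamatinib minus DMSO, with the 95% interval from limma; the dotted lines mark a change of 2-fold and the open square an adjusted p above 0.05. The ERK-directed genes run from -3.20 (DUSP6) to 1.95 (DUSP4), and the p38/JNK-directed genes from -1.06 (DUSP8) to 0.29 (DUSP10).

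The ERK-directed and the p38/JNK-directed phosphatases were then set side by side. The 5 ERK-directed genes were all called, 2 higher and 3 lower, and of the 5 p38/JNK-directed genes 1 was called higher and 3 lower, against 23.3% of all genes higher and 24.5% lower. The median size of the change, without its sign, was 1.50 on the log2 scale for the ERK-directed genes and 0.26 for the p38/JNK-directed genes, against 0.27 over all genes. With the sign, the medians were -0.48 and -0.13, and the median over all genes was 0.0015. These 2 medians are the values of DUSP7 and DUSP16. Their difference, -0.35, had an SD of 0.109 over the fostamatinib samples. This SD holds neither the spread of the DMSO samples nor the spread among genes. The class difference depended on the summary, since the difference of the means was -0.03. The kinase preference is a simplification, because DUSP4 also acts on JNK and DUSP1 also on ERK. Without DUSP4 among the ERK-directed genes, the difference of the medians was -0.63. Leaving out DUSP1 and DUSP14, which lie on either side of DUSP16, gave -0.35 again. This was fixed in advance, because DUSP16 remains the median gene, so it does not show that the class assignment is without effect.

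Levels of different genes were compared per length, as CPM per kilobase of exon. In the DMSO samples DUSP1 had 57.1 ± 2.86 CPM per kb (SD, n = 3), DUSP16 had 18.1 ± 0.670 and DUSP5 had 16.4 ± 0.513. DUSP10 (9.56 ± 0.171) and DUSP14 (9.09 ± 0.701) followed with overlapping samples, then DUSP9 with 7.46 ± 0.377. DUSP6 (3.88 ± 0.458) and DUSP8 (3.20 ± 0.321) also overlapped each other, and DUSP7 (2.51 ± 0.234) and DUSP4 (1.33 ± 0.0081) were last. DUSP1 thus stood well above the rest, and DUSP4 had the least RNA of the 10 genes before treatment.

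After fostamatinib the order changed mainly among the ERK-directed genes. DUSP1 remained first with 58.3 ± 2.95 CPM per kb, and DUSP9 moved from place 6 to place 2 with 21.1 ± 1.26. DUSP16 (16.5 ± 0.464) and DUSP10 (11.7 ± 0.493) came next, and DUSP5 (8.01 ± 0.893) overlapped DUSP14 (7.65 ± 1.09). DUSP4, with 5.13 ± 0.125, stood above DUSP7 (1.80 ± 0.116) and DUSP8 (1.56 ± 0.297), which overlapped each other. DUSP6 was last with 0.422 ± 0.060. The order depended on the length used. With the longest transcript, DUSP7 (4.23 ± 0.395) came before DUSP6 (4.13 ± 0.488) with DMSO, with overlapping samples, and before DUSP8 (3.29 ± 0.330) with separate samples. DUSP14 then came before DUSP5 after fostamatinib, with overlapping samples, and DUSP4 was still last with DMSO.

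The summed level of the ERK-directed phosphatases moved far less than its parts. The sum of the 5 genes was 31.8, 31.2 and 31.6 CPM per kb with DMSO and 35.6, 35.1 and 38.6 after fostamatinib. The samples did not overlap, and the ratio of the means was 1.16. Within this sum, DUSP4 and DUSP9 together went from 8.79 ± 0.373 to 26.2 ± 1.14 CPM per kb (SD, n = 3), and DUSP5, DUSP6 and DUSP7 together from 22.7 ± 0.359 to 10.2 ± 0.896. The pair thus gained more than the other genes lost. The leading ERK-directed phosphatase changed from DUSP5, with 51.9% ± 2.17 of the sum with DMSO and 21.9% ± 1.52 after fostamatinib, to DUSP9, with 23.7% ± 1.09 and 57.9% ± 1.24. DUSP4 went from 4.22% ± 0.069 to 14.1% ± 1.01, and DUSP6 from 12.3% ± 1.33 to 1.17% ± 0.218.

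The p38/JNK-directed sum was 98.9, 99.4 and 92.9 CPM per kb with DMSO and 100.3, 94.7 and 92.4 after fostamatinib. These samples overlapped, and the ratio of the means was 0.987. DUSP1 made up 58.9% ± 1.05 of this sum with DMSO and 60.9% ± 0.563 after fostamatinib. Of the summed level of all 10 genes, the ERK-directed genes held 24.5% ± 0.785 with DMSO and 27.6% ± 1.70 after fostamatinib. RNA levels do not give the amount or activity of the phosphatases, which were not measured here.

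**Figure D3:**
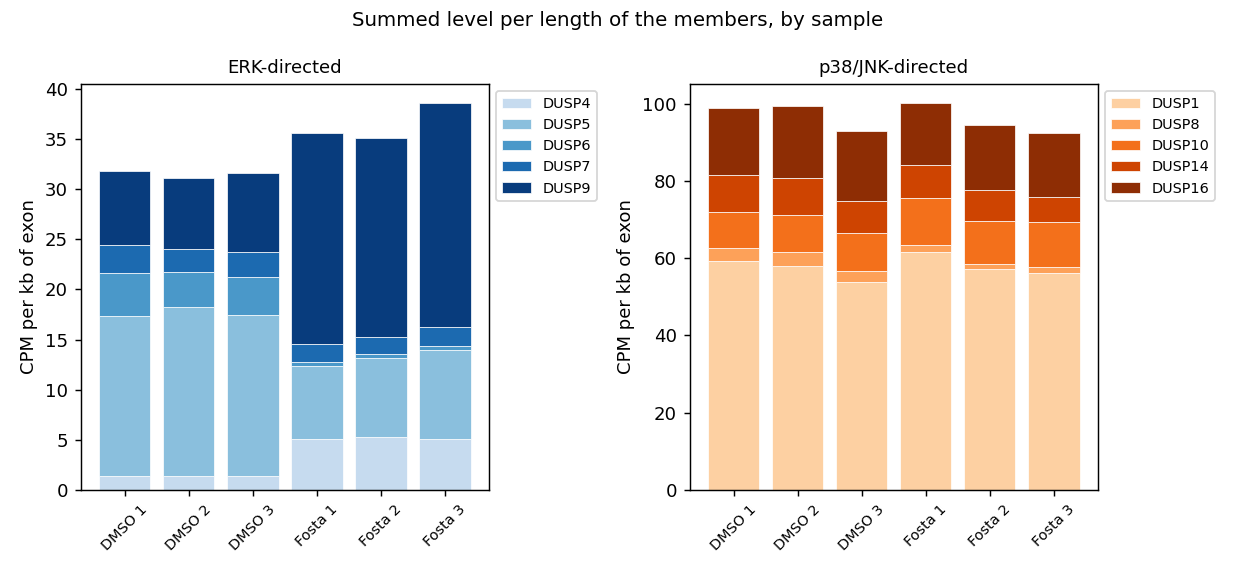
Stacked levels in CPM per kb of exon of the 5 ERK-directed (left) and the 5 p38/JNK-directed phosphatases (right) in each DMSO and fostamatinib (Fosta) sample; the 2 vertical axes differ in range and both start at 0. On the left the total goes from a mean of 31.5 to 36.5 while DUSP9 takes the place of DUSP5 as the largest part, and on the right the totals overlap.

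The promoter windows of the members, from 250 bases before to 50 bases after a transcription start, were searched for letters that transcription factors of this pathway are known to bind. RefSeq windows (GRCh38.p14) were found for 8 of the 10 genes, with 10 starts in all, and DUSP4 and DUSP5 were not searched. The sequences of DUSP6 and DUSP8, which fell, and of DUSP1, whose change did not pass the test, are shown because they held the ETS and CRE matches. Motif matches on either strand are in capitals. ETS factors, several of them activated by ERK, bind CGGAAG, and CREB and ATF factors bind the cyclic AMP response element (CRE) TGACGTCA. DUSP6 is at chr12:89352452-89352751, DUSP8 at chr11:1572222-1572521 and DUSP1 at chr5:172771146-172771445, each printed 5′ to 3′ along its own - strand.
DUSP6: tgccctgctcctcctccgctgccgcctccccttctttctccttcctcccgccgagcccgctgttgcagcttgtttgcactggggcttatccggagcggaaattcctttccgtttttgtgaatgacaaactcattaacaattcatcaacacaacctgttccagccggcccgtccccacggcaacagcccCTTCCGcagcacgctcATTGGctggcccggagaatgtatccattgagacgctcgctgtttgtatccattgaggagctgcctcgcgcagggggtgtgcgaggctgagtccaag
DUSP8: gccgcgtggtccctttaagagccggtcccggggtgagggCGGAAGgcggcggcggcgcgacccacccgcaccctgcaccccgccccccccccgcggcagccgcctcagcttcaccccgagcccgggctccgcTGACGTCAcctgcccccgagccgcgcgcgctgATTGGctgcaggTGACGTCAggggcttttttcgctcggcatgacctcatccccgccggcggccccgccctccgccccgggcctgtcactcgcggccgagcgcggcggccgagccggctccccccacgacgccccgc
DUSP1: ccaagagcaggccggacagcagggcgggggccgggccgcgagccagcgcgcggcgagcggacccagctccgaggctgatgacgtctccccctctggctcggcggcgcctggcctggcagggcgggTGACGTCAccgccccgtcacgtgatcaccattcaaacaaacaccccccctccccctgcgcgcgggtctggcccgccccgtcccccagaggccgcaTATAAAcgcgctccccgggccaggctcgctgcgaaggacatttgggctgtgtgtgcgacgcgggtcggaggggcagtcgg

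The DUSP6 window held 1 ETS match, beginning 62 bases before the start, and 1 CCAAT box. DUSP8 held 2 CREs, beginning 118 and 74 bases before the start, 1 ETS match at 211 and 1 CCAAT box. DUSP1 held 1 CRE at 125 bases and 1 TATA box (TATAAA) at 30 bases before the start. Among all 35116 windows of this length, 19.5% held the ETS letters, 1.85% the CRE, 11.5% the TATA box and 34.6% the CCAAT box. The AP-1 letters TGANTCA (7.71% of all windows), the EGR1 letters GCGGGGGCG (5.07%) and the FOXO letters GTAAACA (3.42%) were in none of the 10 windows, and no searched motif overlapped another in these 3. The windows of DUSP9, which rose, and of DUSP14 and DUSP16 held none of the 7 motifs, that of DUSP7 held 1 CCAAT box, and a window of DUSP10 held 4. A match is only the presence of these letters, and binding was not measured here.

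The genes around the phosphatases were described from lists of the pathway. Of 15 other dual-specificity phosphatases, most of them small atypical enzymes that do not act mainly on MAPKs, 10 had a value, and DUSP2, DUSP15, DUSP21, DUSP23 and DUSP26 were not analysed here. DUSP13 rose by 1.53 on the log2 scale (adjusted p = 2.04e-04, limma), from a mean of 8.7 to 24.0 reads, and DUSP12 was lower with -0.58 (adjusted p = 1.94e-06). The other 8 did not pass the test, which 47.8% of all genes passed. The median log2 fold change of the 10 genes was -0.07, and DUSP3, with the least change, gave -0.06 (adjusted p = 0.218).

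Of the MAP kinases, which these phosphatases inactivate, 9 of 10 had a value (MAPK10 was not analysed here), and 1 was higher and 2 lower, against 23.3% and 24.5% of all genes. MAPK3, which encodes ERK1, rose by 0.60 on the log2 scale (adjusted p = 8.69e-10, limma). The p38 genes MAPK11 and MAPK12 were lower with -0.57 and -0.29 (adjusted p = 4.26e-07 and 1.14e-04), and MAPK14, the main p38 gene, gave -0.0099 (adjusted p = 0.887). The JNK genes MAPK8 and MAPK9 did not pass the test. Of the 7 MAP kinase kinases, 1 was higher and 1 lower, against 23.3% and 24.5% of all genes. MAP2K7, an activator of JNK, rose by 0.19 (adjusted p = 0.0100, limma). MAP2K1, which encodes the ERK activator MEK1, was lower with -0.30 (adjusted p = 6.02e-07). The other 5 did not pass, MAP2K6 with -0.0074 (adjusted p = 0.975).

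Among 6 phosphatases of other families that act on MAPKs, 4 had a value and 3 of them were lower, against 24.5% of all genes. PTPRR, a tyrosine phosphatase that binds ERK, was lower with a log2 fold change of -1.68 (adjusted p = 1.42e-07, limma), the same direction as DUSP6. Its level after fostamatinib rested on 18, 14 and 21 reads. PPP2CA and PPP2CB, the catalytic subunits of protein phosphatase 2A, were lower with -0.18 and -0.39 (adjusted p = 2.36e-03 and 2.59e-09). PPM1A gave -0.05 (adjusted p = 0.492), and PTPN5 and PTPN7 were not analysed here.

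Of 16 other feedback inhibitors and output genes of the ERK pathway, 14 were lower, against 24.5% of all genes, and the other 2 did not pass the test. The median log2 fold change was -1.28, against 0.0015 over all genes. Those with the lowest values next to the -3.20 of DUSP6 were the ETS factors ETV5 (-3.76) and ETV4 (-2.90), the feedback inhibitor SPRY4 (-3.26) and the AP-1 subunit FOSL1 (-2.65), and all 4 had adjusted p-values of at most 4.97e-10 in limma. After fostamatinib these 4 rested on few reads, with 13, 17 and 15 for ETV5 and 6, 20 and 6 for ETV4. SPRY4 had 32, 15 and 14 reads, and FOSL1 had 37, 30 and 28. IER3, EPHA2, FOS, CCND1, SPRED1 and SPRED2 had log2 fold changes between -1.78 and -1.16. Of these, FOS also rested on few reads after fostamatinib, with 21, 22 and 19. EGR1 (-0.13, adjusted p = 0.645) and SPRED3 (0.53, adjusted p = 0.384) did not pass the test. DUSP4 and DUSP9 thus lay on the other side of 0 from every called gene of this list. Of 8 genes listed for stress-kinase output, 7 had a value, 4 were lower and 1 was higher, against 24.5% and 23.3% of all genes. Whether stress kinases control these genes in these cells was not tested. GADD45A (-2.02) and ATF3 (-1.28) were lowest (adjusted p = 5.72e-24 and 1.37e-16, limma), GADD45B rose by 0.33 (adjusted p = 1.40e-05), ATF2 gave 0.03 (adjusted p = 0.574), and GADD45G was not analysed here. These lists were written with earlier results of the same samples known and are no independent evidence of direction.

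**Figure D4:**
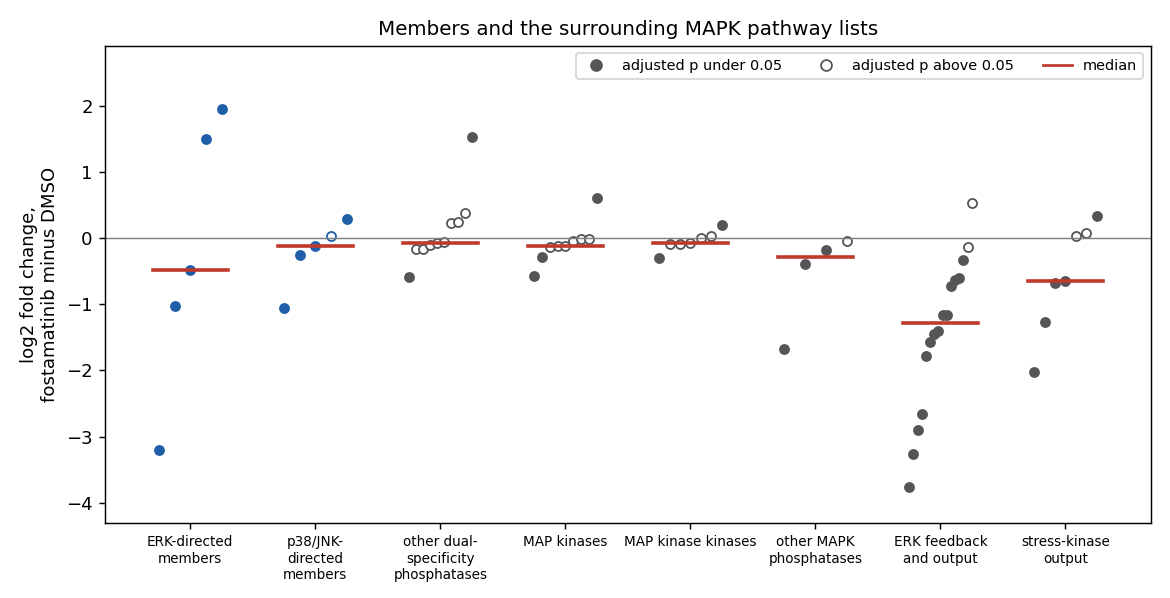
Log2 fold change, fostamatinib minus DMSO, of each gene in the 2 classes of phosphatases (blue) and in 6 lists of surrounding genes (grey); filled points have an adjusted p under 0.05 and red lines are medians. The ERK feedback and output genes lie mostly below 0 with a median of -1.28, the MAP kinases lie between -0.57 and 0.60, and the ERK-directed phosphatases lie on both sides.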

How the data were processed

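RNA was sequenced from 3 fostamatinib-treated and 3 DMSO-treated samples of Huh7-R cells. Alignment to hg19 was done by the authors with HISAT and counting per gene with featureCounts against GENCODE. Genes with few reads in both groups had been removed, and TMM factors scaled the samples. The deposited values are log2 CPM, with 0.5 added to each count. Counts were recovered from these values, each within 0.05 of a whole number, and served for depth and alternatives.

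The log2 CPM of all 16305 genes entered a linear model in limma 3.58.1 (R 4.3.3, moderated variances that follow the mean level), with treatment as the single term, and p-values were adjusted by Benjamini-Hochberg over all genes. The fit was also run on simulated data, in which far fewer genes changed than were called here. Nothing is concluded from that run about these calls. A gene with an adjusted p-value under 0.05 was called. The 3 samples per group limit the precision, and the smallest p-values rest on variances shared across genes. Without the mean-variance trend, the adjusted p of DUSP4 in limma was 8.41e-05 instead of 1.44e-20. Because of the 0.5 added, log2 fold changes of genes with few reads are understated. Sums were made with Python 3.11.15.

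Positions and exon lengths are from GENCODE version 44 mapped to GRCh37, the build of hg19, and promoter windows are from RefSeq on GRCh38.p14. The members, the lists and the searched motifs were chosen with earlier results of these data known. The genes named are all 10 members and, of the lists, those with an absolute log2 fold change of at least 1 and an adjusted p-value under 0.05, the most and least changed, those without a value and all markers. Others named were chosen after their values were seen, and 1 marker and 1 kinase of the lists are not reported here. Samples with the same replicate number did not deviate together (correlations of -0.021 to 0.037 over 3 pairs), so no block was used. Alternatives covered the scaling, the filter, the added count, the variance model, a replicate block, each sample left out, a test against a 2-fold change and the gene length.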

Additional observations from a re-analysis of the deposited data

How the results depend on the processing

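The called genes kept their direction under all 15 alternatives, with log2 fold changes of 1.93 to 1.96 for DUSP4, 1.45 to 1.54 for DUSP9, -3.30 to -3.09 for DUSP6, -1.12 to -0.96 for DUSP5 and -1.17 to -0.89 for DUSP8. DUSP1 turned to -0.0107 without DMSO replicate 3 and to -0.0103 without fostamatinib replicate 1, with a highest value of 0.0588 without DMSO replicate 1, and was called under none of the alternatives. Without the mean-variance trend 6382 genes were called instead of 7794, and DUSP14 and DUSP16 were not called (adjusted p = 0.168 and 0.107 in limma). Against a 2-fold change, 295 genes were called instead of 7794, with 1 member lower, DUSP6, instead of 6. A replicate block gave 7977 called genes and changed no member's call. The samples share only a number. With each replicate left out in turn 6958 to 7480 genes were called, with 3 members higher and 4 to 6 lower. The difference between the medians of the ERK-directed and the p38/JNK-directed genes was -0.44 to -0.26 with a replicate left out. It was -0.63 without DUSP4 and -0.0297 between means. Without DUSP1 and DUSP14 it was -0.35, which was fixed in advance because DUSP16 remains the median gene. The ratio of the ERK-directed sums was 1.12 to 1.18 with a replicate left out, chosen after seeing the data, and 1.20 with the longest transcript as length. The scaling alternatives moved the median of all genes by at most 0.011. Of the other dual-specificity phosphatases, 1 to 2 were higher and 1 to 3 lower with a replicate left out, and DUSP13 was not tested with at least 10 reads in every sample. Among the members, depth limits DUSP6 most, with 18 to 26 reads after fostamatinib.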
